A study of Mus musculus with 6 samples.

Results

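The Wnt ligands, receptors and modulators of the mouse ovary were examined as a list of 47 genes, picked by name for their place in the pathway. The list held 19 Wnt ligands, 10 frizzled receptors, the 2 co-receptors Lrp5 and Lrp6, the 3 R-spondin receptors Lgr4, Lgr5 and Lgr6, and 4 R-spondins. It also held 4 secreted frizzled-related proteins, 3 dickkopf genes, Wif1 and Axin2. All 47 were found among the 36727 genes of the count table, and 37 had enough counts to be tested. RNA-seq libraries came from tissue labelled ovary of adult female F4 inbred Swiss albino mice, 135 to 140 days old, described in the labels as staged by estrous phase. High litter size was represented by 3 libraries (replicates 1, 3 and 4) and low litter size by 3 others (replicates 1, 2 and 5), and the labels gave no other difference. Litter size is how many young are born together. The study's title relates the comparison to fitness. Nothing in the labels says whether the samples came from separate animals or from pools, so every p-value below reflects only how far these samples spread, and that spread may be technical.

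Wnt proteins are secreted, lipid-modified signals that bind frizzled receptors. In the branch that acts through beta-catenin, a frizzled and a co-receptor of the Lrp5 and Lrp6 pair take up the ligand, beta-catenin is spared from breakdown, and target genes such as Axin2 are transcribed. R-spondins bind Lgr receptors and keep frizzleds on the cell surface by holding off the ubiquitin ligases Znrf3 and Rnf43. Secreted frizzled-related proteins and Wif1 bind Wnts outside the cell, and Dkk1 blocks the co-receptors. In the mouse, Wnt4 and Rspo1 are needed for the developing ovary to keep its identity, Fzd4 for the corpus luteum, and Wnt7a for the uterus and oviduct.

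Total estimated counts per library ran from 17620903 to 24758222, and 1 count was worth between 0.0390 and 0.0624 CPM (counts divided by a library size adjusted with the trimmed mean of M-values, TMM). The labelled tissue was checked against markers. All 8 granulosa cell markers were in the table, and their summed level came, in the order of replicates just given, to 31.5, 17.8 and 430 CPM with high litter size, against 284, 25.8 and 233 CPM with low litter size. High replicates 1 and 3 and low replicate 2 thus stood apart, with Fshr at 0 counts in these 2 high libraries and Amh at 0 in that low library. The summed level of the 7 luteal and theca markers was lowest in the same 3 libraries, at 203, 254 and 95.4 CPM, against 771 to 9966 CPM in the other 3. Not every marker followed the sum, since Scarb1 and Ptgfr were lowest in low replicate 1, at 47.1 and 7.97 CPM. The 8 oocyte markers summed to 1.28, 3.43 and 67.6 CPM with high litter size, against 13.7, 2.83 and 46.2 CPM with low litter size, with Zp2, Zp3 and Figla at 0 in high replicate 1 and low replicate 2 and Figla at 0 in high replicate 3. Markers of neighbouring tissue were detected in every library, and the 6 of uterine epithelium summed to 160 to 5270 CPM with high and 4913 to 20330 CPM with low litter size. The 6 markers of Mullerian duct identity, a list drawn up for uterus and oviduct, summed to 653, 128 and 115 CPM with high litter size, against 266, 233 and 297 CPM with low litter size. That list was mixed, with 4 positive and 2 negative log2 fold changes, high minus low (55.3% positive over all tested genes). Adipocyte markers reached 23032 CPM in high replicate 3. The labels do not say whether uterus, oviduct or fat was taken with the ovary, so the values below are those of the tissue labelled ovary and may not come from ovarian cells alone. In bulk RNA, fewer cells of a type and less RNA per cell cannot be told apart.

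No Wnt gene passed the test over all genes. By edgeR's quasi-likelihood test with Benjamini-Hochberg adjustment, 0 of 37 tested members had an adjusted p under 0.05, and 0.00608% of all 16455 tested genes did. At an unadjusted p under 0.05, 12 members (32.4%) were counted, 8 with higher and 4 with lower values in the high litter size group. Over all tested genes the share was 14.4%, with 6.56% higher and 7.82% lower. The split among members moved with single libraries, to 6 higher and 7 lower without high replicate 1 and to 4 higher and 4 lower without low replicate 1. Over all tested genes the share was 15.2% without high replicate 1 and 7.27% without low replicate 1. DESeq2 gave 6 of 35 members with an adjusted p under 0.05 (4 higher, 2 lower), where 6.56% of all genes were called (2.26% higher, 4.3% lower), and limma voom gave 0 members. The groups had no overlap in 10 members, the high litter size libraries being above in 7 and below in 3, against 19.5% of all tested genes (8.75% above, 10.8% below). Positive log2 fold changes, high minus low, were found in 23 of 37 members, and the median was 0.24, beside 55.3% and 0.07 over all tested genes. The 12 members below are therefore described by their values, and none is a passed call of the edgeR test.

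**Figure D1:**
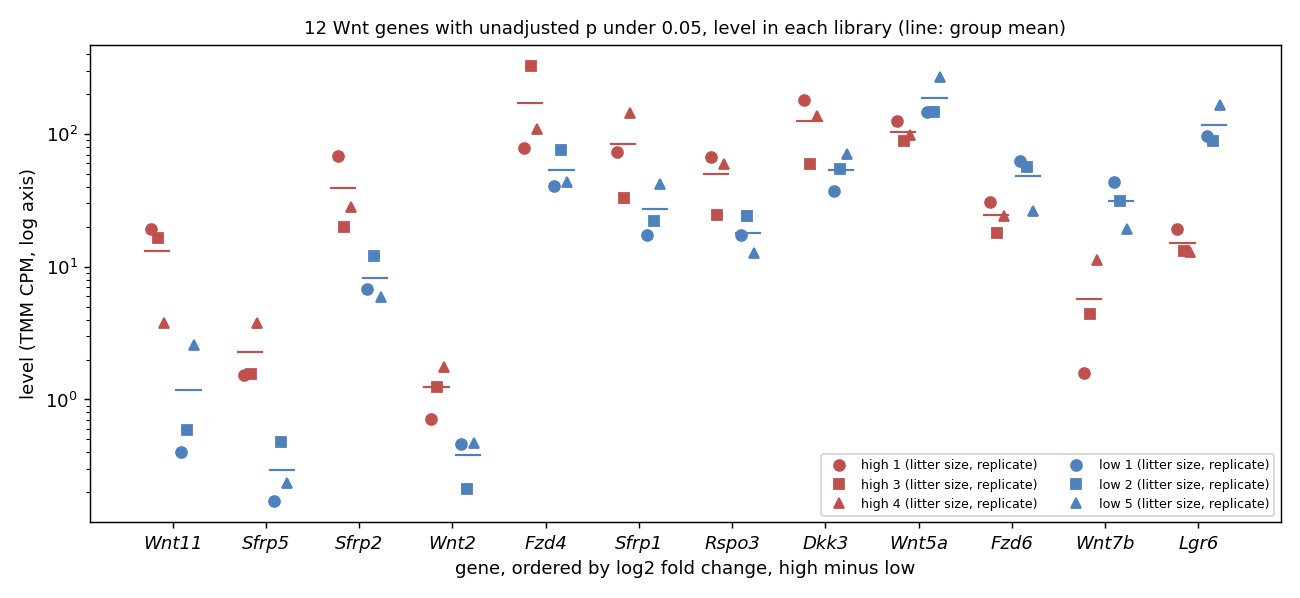
Level of the 12 Wnt genes with an unadjusted p under 0.05, in TMM-scaled CPM on a log axis, with 1 point per library, high litter size in red left of low litter size in blue, and lines for group means. Lgr6 stands clearly apart, at 13.0 to 19.2 CPM in the high libraries and 88.5 to 165 CPM in the low libraries, while the groups overlap for Sfrp1, Dkk3 and no other gene of the 8 with higher values.

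**Figure D2:**
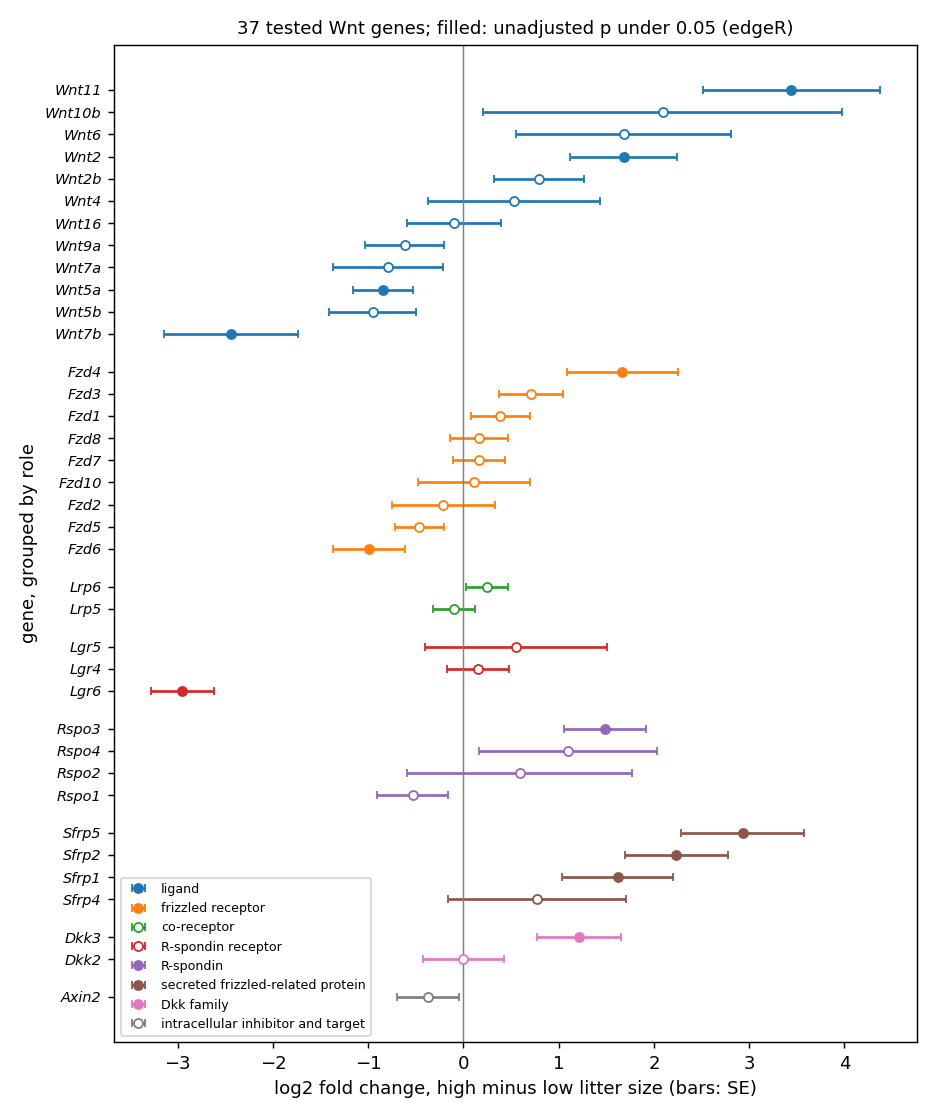
Log2 fold change, high minus low litter size, of the 37 tested Wnt genes grouped by role, with bars for the SE of the edgeR fit. Filled points have an unadjusted p under 0.05. The 4 secreted frizzled-related genes all lie right of 0, and Lgr6 lies farthest left, at -2.95.

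Promoter sequences are shown for those of the 6 members called by DESeq2 that have an entry in the promoter table, so that their motifs can be compared. RefSeq (GRCm38.p6) gave promoters for 31 of the 47 members, and each window covers the 250 bases before the annotated start, 5′ to 3′ on the gene's strand. Lgr6 is at chr1:135105277-135105526 (minus strand), Sfrp2 at chr3:83766071-83766320 (plus strand), Sfrp5 at chr19:42202253-42202502 (minus strand), and Wnt11, at the upstream of its 2 starts, at chr7:98834862-98835111 (plus strand). Capitals mark matches, on either strand, to the GC box GGGCGG, the TATA box TATAAA, the TCF and LEF core CTTTGAA or CTTTGAT, the oestrogen receptor half-site AGGTCA and the progesterone receptor half-site TGTTCT.
Lgr6: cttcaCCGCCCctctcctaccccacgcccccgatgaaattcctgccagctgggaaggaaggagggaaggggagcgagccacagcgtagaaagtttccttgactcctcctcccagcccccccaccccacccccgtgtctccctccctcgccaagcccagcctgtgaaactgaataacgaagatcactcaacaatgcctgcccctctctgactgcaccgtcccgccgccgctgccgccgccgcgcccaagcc
Sfrp2: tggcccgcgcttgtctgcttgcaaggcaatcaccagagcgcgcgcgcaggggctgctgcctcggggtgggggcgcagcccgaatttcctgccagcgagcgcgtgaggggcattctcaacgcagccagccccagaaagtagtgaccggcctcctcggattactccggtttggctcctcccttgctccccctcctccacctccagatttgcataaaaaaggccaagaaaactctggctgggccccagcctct
Sfrp5: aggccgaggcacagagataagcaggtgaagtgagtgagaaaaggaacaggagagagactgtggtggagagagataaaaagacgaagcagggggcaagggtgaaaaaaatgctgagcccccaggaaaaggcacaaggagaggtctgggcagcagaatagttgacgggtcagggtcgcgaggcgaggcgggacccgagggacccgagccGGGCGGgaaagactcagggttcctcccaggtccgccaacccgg
Wnt11: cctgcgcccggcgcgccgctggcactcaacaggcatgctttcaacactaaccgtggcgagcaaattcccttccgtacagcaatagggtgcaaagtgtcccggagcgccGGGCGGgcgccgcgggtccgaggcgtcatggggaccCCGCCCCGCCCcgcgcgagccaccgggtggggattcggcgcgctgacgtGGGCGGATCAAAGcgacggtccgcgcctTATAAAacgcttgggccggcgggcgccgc
The Lgr6 window held 1 GC box, the Sfrp5 window 1, and the Sfrp2 window no match to any of the 5 motifs. In the Wnt11 window, the GC box nearest the start abuts a TCF and LEF core on the opposite strand, a TATA box follows, and 2 further GC boxes on the opposite strand overlap by a base. TCF and LEF cores were found in the promoters of 3 of 31 members (Dkk1, Wnt5b and Wnt11) and in 7.48% of all 32851 promoters in the table. The oestrogen receptor half-site was found in 1 of 31 members, Wnt16, and in 14.0% of all promoters, the progesterone receptor half-site in 4 and in 16.1%, and the TATA box in 5 and in 12.4%. GC boxes were found in 23 of 31 members and in 32.7% of all promoters, and the median GC content of the member windows was 67.4%, beside 52.4% for all. A match is a run of letters and does not show that a factor binds there.

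Among the R-spondin receptors, Lgr6 had the only unadjusted p under 0.05, with lower values under high litter size. Lgr6 (ENSMUSG00000042793, GRCm38 chromosome 1, 134983301 to 135105276, minus strand) had 19.2, 13.1 and 13.0 CPM with high litter size (always replicates 1, 3 and 4), against 96.6, 88.5 and 165 CPM with low litter size (always replicates 1, 2 and 5). Every low library lay above every high library, with means of 15.1 ± 3.52 CPM with high and 117 ± 42.3 CPM with low litter size (SD, n = 3 each). Its log2 fold change was -2.95 (SE 0.33, unadjusted p = 6.02e-05), the 6th smallest p of all genes tested, and the edgeR adjusted p was 0.14. DESeq2 gave an adjusted p of 2.03e-12, and over all alternative settings the adjusted p ran from that value to 0.444. With any 1 library left out the log2 fold change stayed between -3.18 and -2.61 and the unadjusted p was at most 0.00048.

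Lgr4, the widely expressed receptor of the family, had 65.5 ± 22.5 CPM with high and 58.9 ± 17.0 CPM with low litter size (SD, n = 3 each), a log2 fold change of 0.15 (SE 0.33). Lgr5, known as a marker of stem cells in several epithelia, had 3.07, 3.75 and 10.4 CPM with high litter size, against 2.43, 0.587 and 8.65 CPM with low litter size. Its groups overlapped, and its log2 fold change of 0.55 (SE 0.95, adjusted p = 0.827 with edgeR) was -0.24 without high replicate 4. That of Lgr4 was -0.19 without high replicate 4 and -0.07 without low replicate 5.

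The make-up of the Lgr family followed from these levels. Scaled by merged exon length, Lgr6 held 24.4, 16.2 and 10.3% of the family's CPM per kilobase with high litter size, against 53.4, 53.3 and 76.2% with low litter size. Lgr4 was the most abundant of the 3 in each high library, with 79.3 ± 5.73% of the family sum, against 37.8 ± 14.4% in the low group (SD, n = 3 each), where Lgr6 came first.

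The R-spondins, ligands of these receptors, included 1 with an unadjusted p under 0.05, Rspo3. Rspo3 (chromosome 10, 29452416 to 29535867), the R-spondin best known from blood vessels, had 66.6, 24.6 and 59.9 CPM with high litter size, against 17.3, 23.9 and 12.8 CPM with low litter size. The groups did not overlap, although high replicate 3 and low replicate 2 were close. The log2 fold change was 1.49 (SE 0.43, unadjusted p = 0.0112, edgeR adjusted p = 0.239), and DESeq2 gave an adjusted p of 0.0321, in a range of 0.0321 to 0.663 over the alternatives. In each of the 6 fits without 1 library the unadjusted p stayed under 0.05, the largest being 0.0406.

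Rspo1, the R-spondin of ovarian development, had 30.8, 14.5 and 18.2 CPM with high litter size, against 23.0, 42.7 and 26.3 CPM with low litter size, with overlapping groups and a log2 fold change of -0.53 (SE 0.37, edgeR adjusted p = 0.555). Per kilobase, Rspo3 came to 57.3 ± 8.29% of the R-spondin sum in the high group and 26.7 ± 4.50% in the low group, and Rspo1 to 40.0 ± 7.40% in the high and 71.8 ± 4.07% in the low group (SD, n = 3 each). Thus Rspo3 was ahead of Rspo1 in each high library and behind it in each low library. In high replicate 3 the shares were close, at 48.9% for Rspo3 and 45.9% for Rspo1. Rspo2 and Rspo4 were scarce, at 0.102 to 3.12 and 0.153 to 1.75 CPM over the 6 libraries, and the log2 fold change of Rspo2 turned negative without high replicate 4 and that of Rspo4 without high replicate 3.

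**Figure D3:**
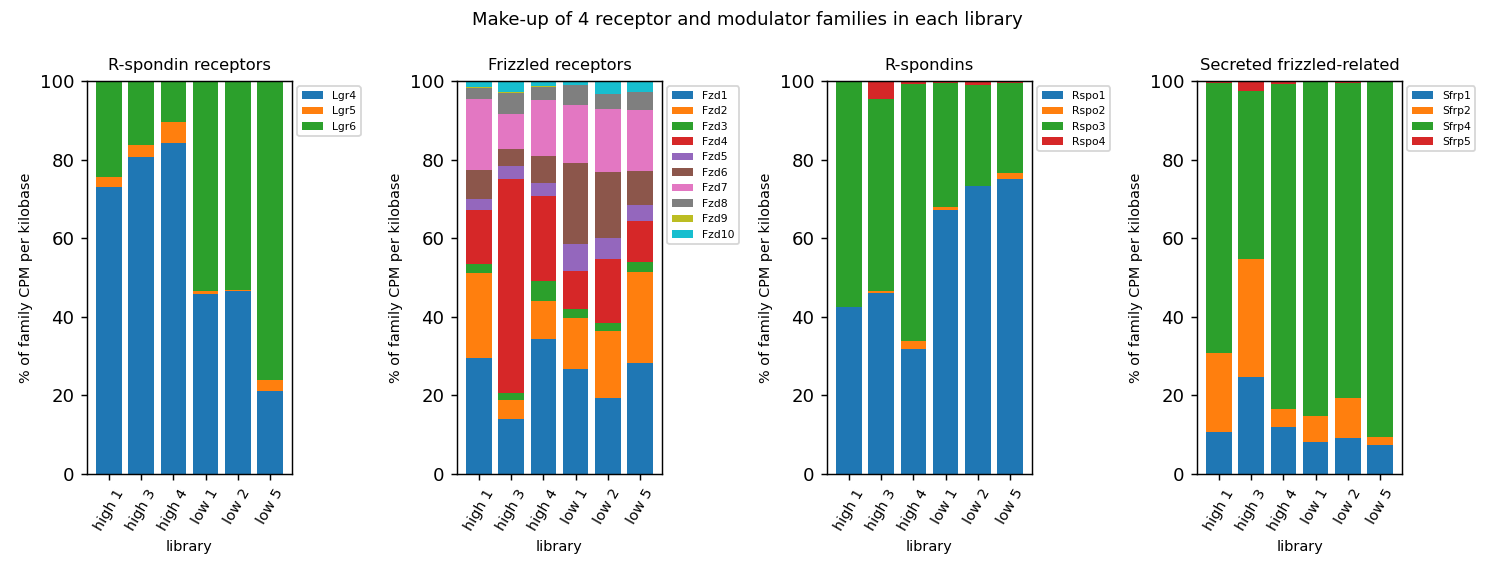
Percent of each family's summed CPM per kilobase of merged exons in the 6 libraries, for R-spondin receptors, frizzled receptors, R-spondins and secreted frizzled-related proteins. The Lgr6 share is 10.3 to 24.4% in the high and 53.3 to 76.2% in the low libraries, and the Rspo3 share is 48.9 to 65.5% in the high and 22.8 to 31.6% in the low libraries.

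The ubiquitin ligases that R-spondins and Lgr receptors act on, which are outside the list of 47, had values in opposite directions. Znrf3 had 22.5, 23.7 and 19.5 CPM with high litter size, against 12.6, 10.8 and 10.3 CPM with low litter size (log2 fold change 0.96, SE 0.22, edgeR adjusted p = 0.188). Rnf43 had 11.1, 8.62 and 12.4 CPM with high litter size, against 27.1, 20.5 and 19.9 CPM with low litter size (log2 fold change -1.07, SE 0.25, edgeR adjusted p = 0.19). Neither gene's groups overlapped, and for both the unadjusted p stayed under 0.05 with any 1 library left out.

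Most tested Sfrp and Dkk genes of the list had higher values in the high group. Of the 6 tested genes of the Sfrp and Dkk families, 5 had positive log2 fold changes (55.3% over all genes), and 4 were higher at an unadjusted p under 0.05 (6.56% over all genes). The median log2 fold change of the 6 was 1.42, beside 0.07 over all genes. Of the 4, Sfrp2 and Sfrp5 kept an unadjusted edgeR p under 0.05 in all 6 fits without 1 library. Sfrp1 and Dkk3 did so in 2 of these 6 fits. Frzb and Dkkl1, relatives of these families outside the list of 47, had negative log2 fold changes of -1.07 and -3.29, each with separate groups. Sfrp2 (chromosome 3, 83766321 to 83774316), a secreted frizzled-related protein of connective tissue, had 68.6, 20.0 and 28.0 CPM with high litter size, against 6.82, 12.0 and 5.96 CPM with low litter size. Every high library lay above every low library, with a log2 fold change of 2.24 (SE 0.54, unadjusted p = 0.00479, edgeR adjusted p = 0.194), or 1.54 without high replicate 1. DESeq2 gave an adjusted p of 0.00301, the lowest of a range that reached 0.597.

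Sfrp5 (chromosome 19, 42197971 to 42202252), a relative known from adipose tissue, was scarce, with 1.53, 1.56 and 3.77 CPM with high litter size, against 0.173, 0.480 and 0.234 CPM with low litter size. Its groups were also separate, with a log2 fold change of 2.93 (SE 0.65, unadjusted p = 0.00304, edgeR adjusted p = 0.182), with a DESeq2 adjusted p of 0.00443 and a range up to 0.579. The lowest value rests on 3 counts, so the size of the difference is loosely fixed.

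Sfrp1 had 73.1, 33.1 and 144 CPM with high litter size, against 17.4, 22.3 and 41.8 CPM with low litter size, and high replicate 3 lay below low replicate 5. Its log2 fold change was 1.62 (SE 0.58, unadjusted p = 0.0288, edgeR adjusted p = 0.308), and 0.94 without high replicate 4. Sfrp4, which in rodents is known from granulosa cells and corpora lutea, had the highest mean level per kilobase of the members, though not the highest in high replicate 3, with 453, 54.9 and 961 CPM with high litter size, against 173, 186 and 500 CPM with low litter size. High replicate 3 was the lowest of all 6 and high replicate 4 the highest, and the log2 fold change of 0.77 (SE 0.93, edgeR adjusted p = 0.748) was -0.19 without high replicate 4.

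Dkk3, a divergent dickkopf protein, had 181, 59.4 and 136 CPM with high litter size, against 37.0, 54.3 and 70.8 CPM with low litter size, with an overlap between high replicate 3 and low replicate 5 and a log2 fold change of 1.21 (SE 0.44, unadjusted p = 0.0307, edgeR adjusted p = 0.312). Dkk2, also a dickkopf protein, had means of 20.3 ± 9.90 CPM with high and 20.4 ± 6.95 CPM with low litter size (SD, n = 3 each). Its log2 fold change was close to 0, between -0.45 and 0.28 with 1 library left out. Dkk1, the antagonist of the co-receptors, had 2 to 10 counts in any library and was not tested.

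Wif1, a secreted protein that binds Wnts, was not tested either. It had 1, 43 and 6 counts in high replicates 1, 3 and 4 and 0 in each low library. Against a floor of 3 counts over the low group, the level was at least 18.5-fold higher in the high group, and at least 3.65-fold higher without high replicate 3, from which most of the counts came. With no filter on low counts its edgeR adjusted p was 0.32.

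Among the Wnt ligands, 12 of 19 were tested, with 6 positive and 6 negative log2 fold changes. Wnt11 (chromosome 7, 98835112 to 98855195), a ligand known mainly for signalling apart from beta-catenin, had 19.2, 16.6 and 3.77 CPM with high litter size, against 0.404, 0.587 and 2.57 CPM with low litter size. High replicate 4 and low replicate 5 were near each other, and the groups were still separate. The log2 fold change was 3.44 (SE 0.93, unadjusted p = 0.00835, edgeR adjusted p = 0.22), and the DESeq2 adjusted p was 0.00251, in a range up to 0.727. Without high replicates 1 and 3 and low replicate 2, the libraries of low ovarian markers, it was 1.29 (edgeR adjusted p = 0.727), in a fit of 1 high against 2 low libraries that assumes the lone library varies like the low group.

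Wnt7b (chromosome 15, 85535437 to 85582473), a ligand of epithelial cells, had 1.58, 4.43 and 11.2 CPM with high litter size, against 43.3, 31.2 and 19.1 CPM with low litter size. The low libraries were all above the high ones, and the spread within the high group was wide. High minus low, the log2 fold change was -2.44 (SE 0.71, unadjusted p = 0.0116, edgeR adjusted p = 0.242), and the DESeq2 adjusted p was 0.0134, in a range up to 0.658. With the 3 libraries of low ovarian markers left out it was -1.51.

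Wnt5a, the main ligand of planar polarity signalling, was the Wnt of highest mean level per kilobase, with 126, 88.8 and 97.9 CPM with high litter size, against 147, 147 and 268 CPM with low litter size. The groups did not overlap, and the log2 fold change was -0.84 (SE 0.31, unadjusted p = 0.0315, edgeR adjusted p = 0.314), or -0.49 without low replicate 5. It made up 32.6 ± 13.0% of the Wnt family's CPM per kilobase in the high group and 43.7 ± 8.04% in the low group (SD, n = 3 each). In high replicate 4 it was behind Wnt4 and Wnt10b, with 17.9% against 27.0 and 21.2%. Its paralog Wnt5b had means of 4.54 ± 1.49 CPM with high and 8.79 ± 3.99 CPM with low litter size (SD, n = 3 each), with a log2 fold change of -0.95 (SE 0.46). Wnt2, a ligand of the beta-catenin branch, had 0.716, 1.25 and 1.76 CPM with high litter size, against 0.462, 0.213 and 0.468 CPM with low litter size (log2 fold change 1.68, SE 0.56, unadjusted p = 0.0217, edgeR adjusted p = 0.29). These groups were separate too, at levels of few counts, with 4 in low replicate 2.

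Wnt4, the ovarian ligand, followed single libraries. It had 11.3, 6.18 and 79.2 CPM with high litter size, against 30.1, 18.8 and 18.2 CPM with low litter size, so the high group held both the lowest and the highest value. The log2 fold change was 0.53 (SE 0.90, edgeR adjusted p = 0.824), and it was -1.37 without high replicate 4 and -0.22 with limma voom. Wnt10b had 0.562, 0.562 and 50.5 CPM with high litter size, against 1.04, 0.533 and 10.4 CPM with low litter size, a 94.7-fold range over the 6. Its log2 fold change of 2.09 (SE 1.88) was -2.86 without high replicate 4. The summed luteal and theca markers were highest in high replicate 4 (9966 CPM) and next highest in low replicate 5 (3205 CPM). Wnt10b had this order and Wnt4 did not. It also held for the oocyte sum and the sum of 4 oviduct epithelium markers. The latter had 1482 CPM in high replicate 4 and 516 CPM in low replicate 5. Of the 7 luteal and theca markers, 1 was higher at an unadjusted edgeR p under 0.05 (6.56% over all tested genes). Not all followed the sum. Cyp17a1 had 1.51 CPM in high replicate 4, 18.8 and 21.1 CPM in low replicates 1 and 5, and 0 in high replicate 1 and low replicate 2. The sum of the 7 was 203 to 9966 CPM with high and 95.4 to 3205 CPM with low litter size. The part of any of these markers in the Wnt results was not tested.

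Wnt7a, the ligand of Mullerian duct patterning, had 6.08, 14.9 and 3.07 CPM with high litter size, against 16.2, 10.2 and 15.1 CPM with low litter size. The groups overlapped, and the log2 fold change was -0.79 (SE 0.58, edgeR adjusted p = 0.578). The other tested ligands were Wnt2b at 9.69 ± 2.19 CPM with high and 5.57 ± 3.31 CPM with low litter size, Wnt9a at 9.01 ± 3.96 CPM (high) and 13.8 ± 4.84 CPM (low), Wnt16 at 8.54 ± 5.37 CPM (high) and 9.16 ± 1.86 CPM (low), and Wnt6 at 6.49 ± 7.03 CPM (high) and 2.02 ± 1.51 CPM (low) (SD, n = 3 each). None of these 4 had an unadjusted p under 0.05 with edgeR. Wnt16 changed sign without high replicate 1 and without high replicate 3.

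Several ligand genes are neighbours in the genome, with no coding gene between them. Wnt6 and Wnt10a lie 6193 bases apart on the same strand of chromosome 1, and both were highest in high replicate 4, at 14.3 and 4.42 CPM. Wnt10a, with 88 counts in that library and at most 12 in any other, was not tested. Wnt10b and Wnt1 lie 11706 bases apart on chromosome 15, and Wnt1 had 1 count in all 6 libraries together. Wnt9a and Wnt3a lie 16175 bases apart on chromosome 11, where Wnt9a averaged 3.43 ± 1.43 CPM per kilobase over the 6 libraries (SD) and Wnt3a 0.0223 ± 0.0444. Wnt9b and Wnt3, 24328 bases apart on chromosome 11, had at most 14 and 4 counts, and Wnt8a and Wnt8b at most 3 and 6.

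Of the frizzled receptors, 9 of 10 were tested, and Fzd9, with at most 7 counts, was not. Fzd4, which takes up norrin as well as Wnts, had 78.9, 323 and 109 CPM with high litter size, against 40.7, 76.4 and 43.6 CPM with low litter size. The groups did not overlap, with high replicate 1 just above low replicate 2. The log2 fold change was 1.67 (SE 0.58, unadjusted p = 0.0247, edgeR adjusted p = 0.301), and 0.81 without high replicate 3. That library also had the most adipocyte transcripts: the 7 adipocyte markers summed to 2773, 23032 and 2387 CPM with high litter size, against 264, 3077 and 808 CPM with low litter size. Of these 7 markers, 2 were higher at an unadjusted edgeR p under 0.05 (6.56% over all tested genes), none was lower at it, and none was at 0. Their part in the Fzd4 values was not tested. Ndp, which encodes norrin and was added after its values were seen, had 12.8, 2.25 and 4.68 CPM with high litter size, against 0.693, 1.97 and 0.390 CPM with low litter size (log2 fold change 2.69, SE 0.88, edgeR adjusted p = 0.28).

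Fzd6, a receptor of planar polarity, had 30.97, 18.1 and 24.1 CPM with high litter size, against 62.6, 56.8 and 26.3 CPM with low litter size. The groups overlapped at high replicate 1 and low replicate 5, and the log2 fold change was -0.99 (SE 0.38, unadjusted p = 0.0348, edgeR adjusted p = 0.323). Fzd3, likewise of planar polarity, had 25.4, 20.9 and 48.0 CPM with high litter size, against 17.6, 19.9 and 20.3 CPM with low litter size. These groups were barely separate, and the log2 fold change of 0.71 (SE 0.34, edgeR adjusted p = 0.399) was 0.24 without high replicate 4.

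The other frizzleds and the co-receptors showed small differences. Fzd1 averaged 88.5 ± 31.9 CPM with high and 67.5 ± 9.33 CPM with low litter size, Fzd7 51.1 ± 17.1 CPM (high) and 45.7 ± 4.27 CPM (low), Fzd2 36.4 ± 27.3 CPM (high) and 42.2 ± 11.7 CPM (low), Fzd8 19.4 ± 7.56 CPM (high) and 17.3 ± 1.40 CPM (low), Fzd5 18.1 ± 2.44 CPM (high) and 24.9 ± 6.41 CPM (low), and Fzd10 5.38 ± 2.64 CPM (high) and 4.98 ± 2.73 CPM (low) (SD, n = 3 each). Lrp5 had 78.0 ± 19.5 CPM with high and 83.5 ± 4.84 CPM with low litter size, and Lrp6 143 ± 30.9 CPM (high) and 121 ± 10.1 CPM (low) (SD, n = 3 each). The log2 fold changes of these 8 genes lay between -0.46 and 0.39, and Fzd2, Fzd7, Fzd8, Fzd10 and Lrp5 changed sign when a library was left out.

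Axin2, a feedback inhibitor that is a general target of beta-catenin signalling, had 39.9, 22.1 and 31.1 CPM with high litter size, against 31.2, 33.3 and 55.9 CPM with low litter size. The groups overlapped, and the log2 fold change was -0.37 (SE 0.32, edgeR adjusted p = 0.644).

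By the mean length-scaled level over all libraries, 2 secreted modulators came first. Sfrp4 led with 92.8 ± 78.9 CPM per kilobase over the 6 libraries (SD), followed by Dkk3 with 26.7 ± 16.7, Wnt5a with 18.6 ± 8.26, Fzd1 with 18.6 ± 5.70, Fzd4 with 16.7 ± 15.9 and Rspo1 with 13.4 ± 5.18. Each of these differed from its neighbour in that order by less than the larger of the 2 SDs. Sfrp1, Rspo3, Sfrp2 and Fzd2 completed the highest 10, between 10.7 and 12.7 CPM per kilobase, and with the longest transcript as length 8 of these 10 were still in the highest 10. The order differed between the groups. In the high group Dkk3 was behind Sfrp4 alone, at 37.3 ± 18.3 CPM per kilobase (SD, n = 3), and in the low group, at 16.1 CPM per kilobase, it was behind Sfrp4, Wnt5a (23.9) and Lgr6 (17.1) and level with Fzd1 (16.1). The lowest tested member was Rspo2 at 0.201 ± 0.225 CPM per kilobase.

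**Figure D4:**
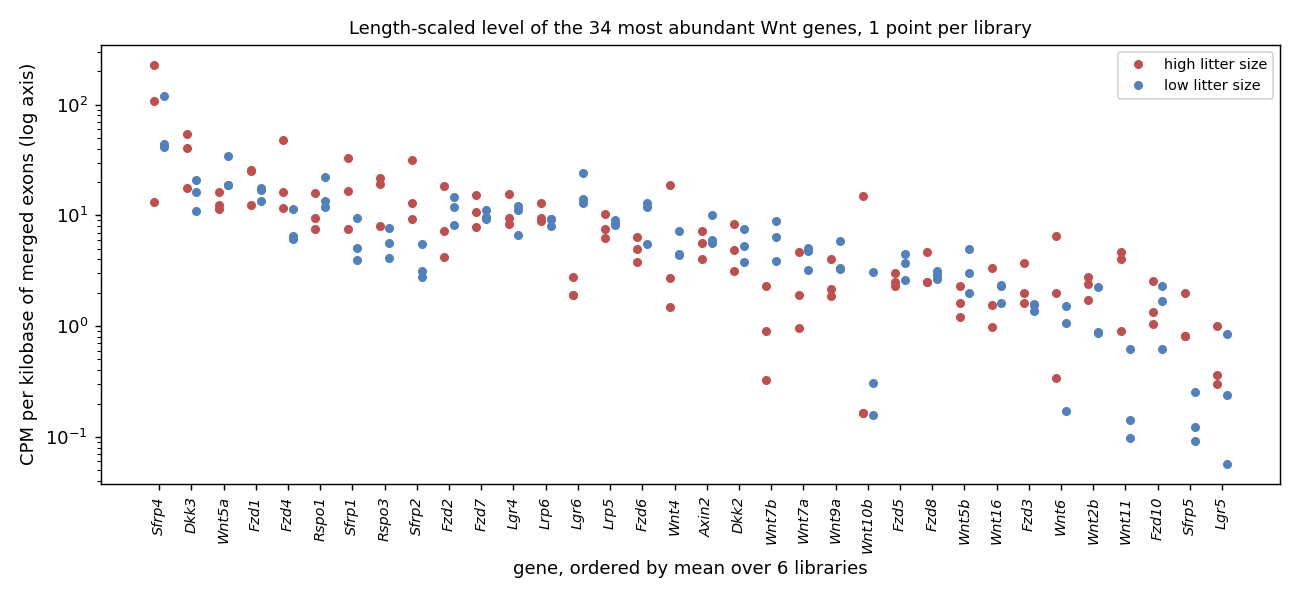
CPM per kilobase of merged exons, on a log axis, of the 34 Wnt genes with the highest mean over 6 libraries, with 1 point per library, high litter size in red left of low litter size in blue. Sfrp4 has the highest mean, 92.8 CPM per kilobase, and Lgr5, the last shown, 0.468.

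The 3 libraries that stood apart by their ovarian markers were also left out together, which sets high replicate 4 alone against low replicates 1 and 5. The high group then rests on 1 library, so only log2 fold changes are given here. The choice was made with the marker values known. These libraries are part of the full comparison, so the values are no independent repeat of it. Lgr6 then had a log2 fold change of -3.36, Rspo3 of 1.97, Sfrp2 of 2.10 and Sfrp5 of 4.12. Wnt4 had 1.68 and Wnt7a -2.38 on the same scale, farther from 0 than with all libraries, and Wnt11 and Wnt7b were nearer to 0.

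Differences between libraries of the same group were often larger than those between groups. In 31 of 37 tested members the highest library of a group exceeded the lowest of that group by more than the group means differed, both as folds. The group of wider range was used, and a range over 3 libraries tends to exceed a difference of means. The share over all genes was not computed, here or for the sign count below, so neither count is read as a trait of the members. The median of the highest over the lowest library was 2.48-fold within the high group and 1.88-fold within the low group. High replicate 4 held the highest value of 13 members and high replicate 3 the lowest value of 12, and the sign of the log2 fold change was the same in all 6 fits without 1 library for 23 of 37 members.

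**Figure D5:**
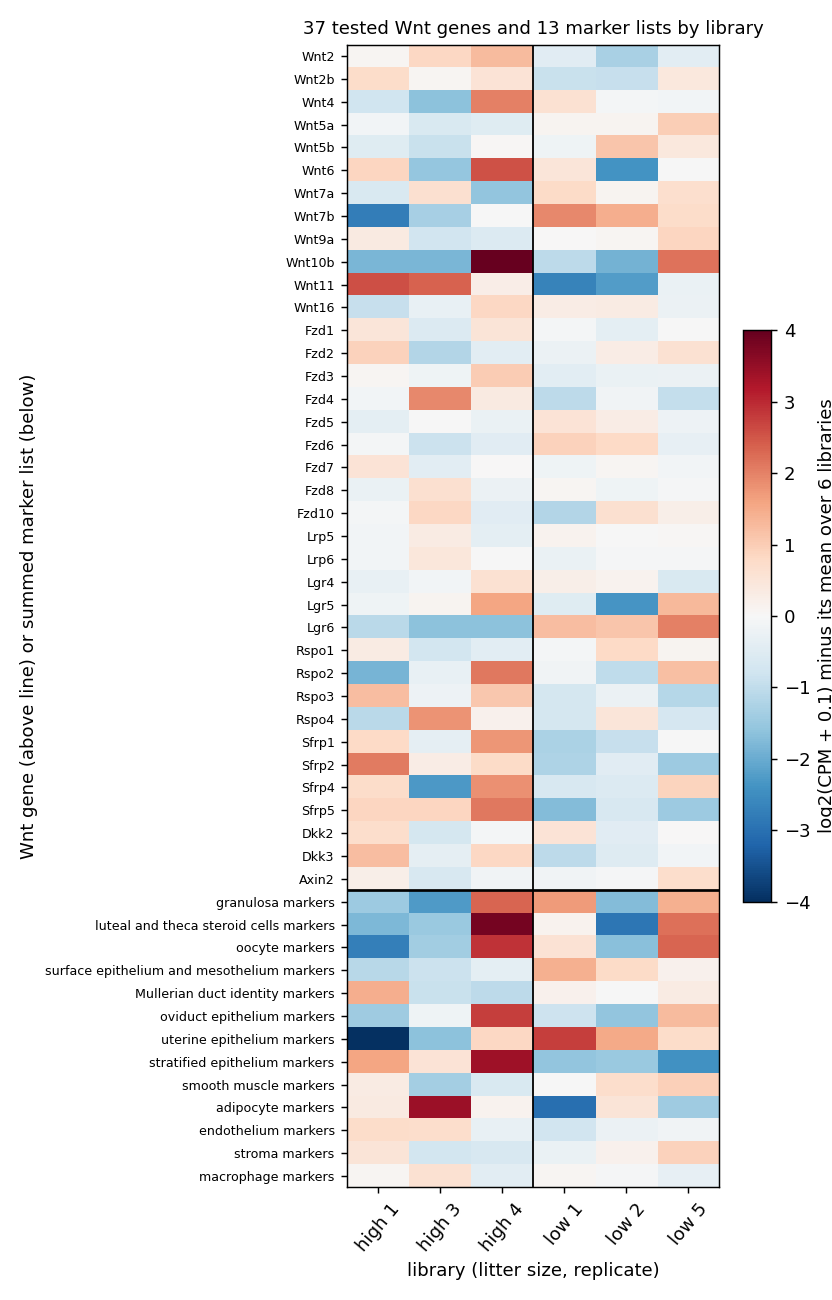
Log2(CPM + 0.1) of the 37 tested Wnt genes and of the summed level of 13 marker lists, each minus its mean over the 6 libraries, with the 3 high litter size libraries left of the 3 low ones. Wnt10b and the summed luteal and theca, oocyte and oviduct epithelium markers are all highest in high 4 and next highest in low 5. Uterine epithelium markers, at 160 to 5270 CPM in the high and 4913 to 20330 CPM in the low libraries, are lowest in high 1.

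Markers of other cells that differed with the members are given with them. Beside the counts below, 6.56% of all tested genes were higher and 7.82% lower at an unadjusted edgeR p under 0.05. Lgr6 and Wnt7b had low values in the same group as the keratin Krt19, singled out after its values were seen, which had 28.5, 94.9 and 148 CPM with high litter size, against 878, 543 and 321 CPM with low litter size. Krt19 was 1 of 6 surface epithelium markers, of which 3 were higher and 1 lower at an unadjusted p under 0.05 (median log2 fold change 1.31), with sums of 157 to 260 CPM with high and 379 to 915 CPM with low litter size. Without Krt19 the other 5 surface epithelium markers ran the opposite way, summing to 128, 90.1 and 112 CPM with high litter size, against 36.4, 38.6 and 57.4 CPM with low litter size. Of the 6 uterine epithelium markers 1 was lower at that threshold, the mucin Muc1, also singled out afterwards. Of these 6 markers 4 had negative and 2 positive log2 fold changes. Their sums overlapped, at 160 to 5270 CPM with high and 4913 to 20330 CPM with low litter size. Of the 6 smooth muscle markers 3 were lower, with sums of 3126 to 10083 CPM with high and 7829 to 15392 CPM with low litter size. The Sfrp2, Sfrp5, Rspo3 and Wnt11 values were high in the same group as the 6 stratified epithelium markers, 4 of which were higher, with sums of 91.1 to 657 CPM with high and 11.6 to 22.1 CPM with low litter size. Of the 5 endothelium markers 2 were higher, with sums of 431 to 864 CPM with high and 309 to 476 CPM with low litter size. Most of the 5 stroma markers had log2 fold changes of the opposite sign to those of Sfrp2, Sfrp5, Rspo3 and Wnt11. None passed the threshold, and 4 had negative log2 fold changes (median -0.59). They summed to 8851, 3662 and 3961 CPM with high litter size, against 5152, 6991 and 11683 CPM with low litter size. None of these lists had a marker at 0 in any library, and their part in the Wnt results was not tested.

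The rest of the pathway was read from lists of 83 genes, 75 of them tested. None had an edgeR adjusted p under 0.05, and DESeq2 gave 8 of 73 (6.56% of all genes). At an unadjusted p under 0.05 there were 16 (21.3%, with 14.4% over all tested genes), 6 higher and 10 lower, and the median log2 fold change was 0.09. Over all tested genes 6.56% were higher and 7.82% lower, and these shares also stand beside the counts of each list below. Of the 22 cytoplasmic genes, which relay the signal or break down beta-catenin, 1 was lower, the casein kinase Csnk1e (log2 fold change -0.78), and of the next in order Amer1 had 0.50 and Ctnnb1, beta-catenin itself, -0.58.

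Secretion of Wnts needs the acyltransferase Porcn and the carrier Wls. Porcn had 13.1, 13.1 and 12.3 CPM with high litter size, against 41.4, 38.7 and 15.2 CPM with low litter size, with no overlap (log2 fold change -1.30, SE 0.39, edgeR adjusted p = 0.249). Wls had a log2 fold change of -0.26. Among 9 tested extracellular modulators outside the list of 47, 2 were higher and 2 lower at the unadjusted threshold. Dkkl1, a dickkopf-like gene known from the testis, had 0.307, 0.437 and 0.905 CPM with high litter size, against 8.03, 5.92 and 2.42 CPM with low litter size (log2 fold change -3.29, SE 0.67, edgeR adjusted p = 0.162). Apcdd1, a membrane inhibitor, had 0.98 and Frzb, a secreted Wnt-binding protein, -1.07.

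In the nucleus, Bcl9, which links beta-catenin to its co-activators, had 53.8, 50.5 and 45.0 CPM with high litter size, against 226, 171 and 117 CPM with low litter size. The groups were far apart, and the log2 fold change was -1.78 (SE 0.28, unadjusted p = 0.000446, edgeR adjusted p = 0.14). Of 15 tested nuclear factors, 2 were higher and 1 lower at the unadjusted threshold. The repressor Tle4 had a log2 fold change of 0.78, and the DNA-binding factor Lef1 had 2.89, or 0.56 without high replicate 1, whose 27.3 CPM was the highest of all 6. Of the 12 tested planar polarity genes 2 were lower, the large cadherins Celsr2 (-2.21, SE 0.55) and Celsr1 (-1.17, SE 0.41), and the scaffold gene Scrib had -0.50.

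Of 17 tested target genes, 4 were higher and 2 lower at the unadjusted threshold, with 14 positive log2 fold changes and a median of 0.39. Over all tested genes 6.56% were higher, 7.82% lower and 55.3% positive, with a median of 0.07. That list shares members with the lists above, and Znrf3 and Rnf43 are its 2 genes of smallest p. The adhesion molecule Cd44 had 66.3, 59.6 and 64.9 CPM with high litter size, against 30.2, 35.6 and 42.5 CPM with low litter size (log2 fold change 0.82, SE 0.19, edgeR adjusted p = 0.19). Of the 6 tested alternative receptors and receptor ligases, 1 was higher at that threshold, the ligase Znrf3, and 2 were lower, the ligase Rnf43 and the Wnt5a receptor Ror2 (log2 fold change -1.69, SE 0.56, edgeR adjusted p = 0.282).

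Similar sequences could share reads between genes. Of the 31-base words of the members' annotated transcripts, at most 5.84% occurred on the same strand of another gene's transcripts, in Wnt4. For the related Fzd1, Fzd2 and Fzd7 the shares were 1.61, 1.90 and 0.777%, all with each other. Lgr6 shared 0.454%, and Sfrp2, Sfrp5, Rspo3, Wnt7b and Wnt11 shared 0%. Words that matched another gene on the opposite strand made up 13.7% in Sfrp2, 12.2% in Rspo3, 8.02% in Wnt11, 4.82% in Wnt7b and 17.2% in Fzd5. They made up 6.60% in Wnt4 and 4.14% in Wnt5a, and other members, such as Axin2 (2.71%), had smaller shares. The sources used here do not say whether the libraries kept strand. Part of the reads of any member with such words may therefore belong to an antisense partner.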

How the data were processed

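The values were estimated counts per gene as deposited, in 1 table of 36727 genes. Read trimming tool Trim Galore, the pseudoaligner kallisto, the GRCm38 build and DESeq2 are listed, per the submitters' processing notes, and versions, order and annotation are not given in the sources used here. Replicate numbers came from the titles. Symbols matched 35869 gene IDs, and coordinates and exon lengths are from GENCODE M21 (GRCm38). Genes were kept by filterByExpr (minimum count 10, minimum total 15), TMM-scaled and tested over all genes with edgeR 4.0.16 (R 4.3.3, quasi-likelihood, Benjamini-Hochberg, threshold 0.05), high minus low. No covariate was fitted, since the labels give none. The SE is the size of the log2 fold change divided by the root of F. DESeq2 1.42.0 and limma 3.58.1 voom were alternatives, beside other scalings, filters, robust dispersion and left-out libraries. A pseudocount of 0.1 was used only in the plot of library deviations. Scripts were tested on simulated data. Members, lists, alternatives and the naming rule were chosen with earlier results of these data known. Members were given in full where the unadjusted edgeR p or the DESeq2 adjusted p was under 0.05, or where groups did not overlap at a mean of at least 1 CPM in the higher group, together with 8 fixed members (Wnt4, Wnt5a, Wnt7a, Rspo1, Fzd4, Lgr5, Sfrp4, Axin2), and up to 3 genes of smallest p per other pathway list. Floors cover counting error only.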

Additional observations from a re-analysis of the deposited data

How the results depend on the processing

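The count of members with an edgeR adjusted p under 0.05 was 0 under every alternative run except DESeq2, which gave 6. Over all genes the count was 1, 1026 with DESeq2, 2 with library totals alone, 3 with limma voom, 0 with the 3 libraries of low ovarian markers left out, and 0 to 1 with 1 library left out. Members with an unadjusted p under 0.05 numbered 8 to 13 with 1 library left out, beside 12, and 7 to 10 of these were shared with the 12. The share over all tested genes moved too, from 7.27% without low replicate 1 to 16.9% without high replicate 4, beside 14.4% with all libraries. The log2 fold changes that turned round with 1 library left out ranged from -1.37 to 1.01 for Wnt4, -2.86 to 4.44 for Wnt10b, -0.76 to 0.22 for Wnt16, -1.01 to 0.15 for Fzd2, -0.13 to 0.37 for Fzd7, -0.20 to 0.30 for Fzd8, -0.36 to 0.51 for Fzd10, -0.31 to 0.0188 for Lrp5, -0.19 to 0.32 for Lgr4, -0.24 to 1.92 for Lgr5, -1.51 to 1.55 for Rspo2, -0.15 to 1.75 for Rspo4, -0.19 to 1.45 for Sfrp4 and -0.45 to 0.28 for Dkk2. With limma voom Wnt4 had -0.22 and Rspo2 -0.20. With the 3 libraries left out Wnt16 had 0.74, Fzd8 -0.28 and Fzd10 -0.20. Dkk2 had 0.0031 with DESeq2 and with RLE scaling, 0.023 with upper-quartile scaling, 0.056 with library totals alone and 0.00026 with at least 1 CPM in 3 libraries. The causes of these turns were not tested. No paired analysis was possible because high and low litter size have just 1 replicate number in common. Levels under 3 counts, between 0.117 and 0.187 CPM, cannot be told from 0 at this depth.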
